A study of Arabidopsis thaliana with 11 samples.

Results

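Pectin methylesterase inhibitors are small cell wall proteins that bind pectin methylesterases and block their activity. The enzymes remove methyl groups from homogalacturonan, the main pectin of the primary wall, and so set how stiff or extensible the wall of a growing cell is. The same protein domain is shared with inhibitors of invertase, so that a domain gene can have either target. The inhibitors described here are 10 loci, selected by locus identifier: PMEI1, PMEI2, PMEI3, PMEI4, PMEI6, PMEI7, PMEI9 and the 3 relatives AT1G62760, AT5G62350 and AT5G62360. They are 10 of the 32627 loci on the array, lie on all 5 chromosomes by their locus numbers, and each has 1 feature, which rests on 4 probes for 5 loci and on 3 probes for the other 5.

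Total RNA came from etiolated hypocotyls, the embryonic stems of dark-grown seedlings, of Arabidopsis thaliana of the Columbia ecotype, aged 96 h. Seeds were kept for 3 days in the cold and dark, exposed to white light for 6 h and then returned to darkness for 4 days. The wild type had 6 arrays and the line labelled atpme3-1, a loss-of-function mutant of the pectin methylesterase gene PME3, had 5 arrays, and each array held RNA from a separate pool of about 300 hypocotyls. The mutant group is 1 allele, so an effect of PME3 and of anything else this line carries cannot be told apart.

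The PME3 feature went against the label. Its log2 intensity was 13.69, 13.82 and 13.86 (lowest, median and highest) in wild type and 14.39 to 14.44 on the arrays labelled mutant, a log2 fold change of 0.61 ± 0.040 (SE, n = 6 and 5, limma adjusted p = 4.91e-07). Where its probes lie relative to the insertion is not known from the files or labels, and probes away from the disruption would say nothing of it. For this reason the group is named labelled mutant, and every direction rests on that label. Wild-type arrays 2 and 5 stood apart from the other wild-type arrays, with higher root hair and green tissue signal and lower seed storage signal. The wild-type arrays most alike were those whose numbers lie 3 apart (1 and 4, 2 and 5, 3 and 6), with an SD of the log2 difference over all features of 0.152 to 0.192, against 0.245 or more for the other wild-type pairs. On the arrays labelled mutant it was 0.233 for 2 and 5 and 0.232 for 3 and 6, and lowest, at 0.176, for 1 and 3. The labels call each array a replicate obtained on its own, so n is 6 and 5 throughout, and each such pair was averaged as an alternative. Among 4 markers of etiolated tissue PORA, PORB and HLS1 did not pass the test and PHYA fell by 0.17 on the log2 scale (adjusted p = 0.0395); none of the 4 lay in the dimmest 25% of features. In RNA from whole hypocotyls, fewer cells of a type and less RNA per cell cannot be told apart.

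The inhibitors did not move as a group. On the arrays labelled mutant 3 of the 10 loci rose (PMEI6, AT5G62360 and PMEI2), 3 fell (AT1G62760, PMEI4 and PMEI9), and 4 did not pass the test (PMEI1, PMEI3, PMEI7 and AT5G62350). By the same call, a limma adjusted p under 0.05, 32.5% of all loci passed, 19.4% higher and 13.1% lower, so calls were frequent everywhere on these arrays. With a fold of at least 1.5 in addition, 2 inhibitors were higher and 2 lower, against 3.58% and 4.99% of all loci, or 8.57% in either direction. The median log2 fold change was -0.04 over the 10 inhibitors and 0.05 over all loci. The groups did not overlap at 3 inhibitors (AT1G62760, PMEI9 and PMEI6) and at 19.6% of all loci. Without wild-type arrays 2 and 5, 2 inhibitors were called higher and 3 lower.

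**Figure D1:**
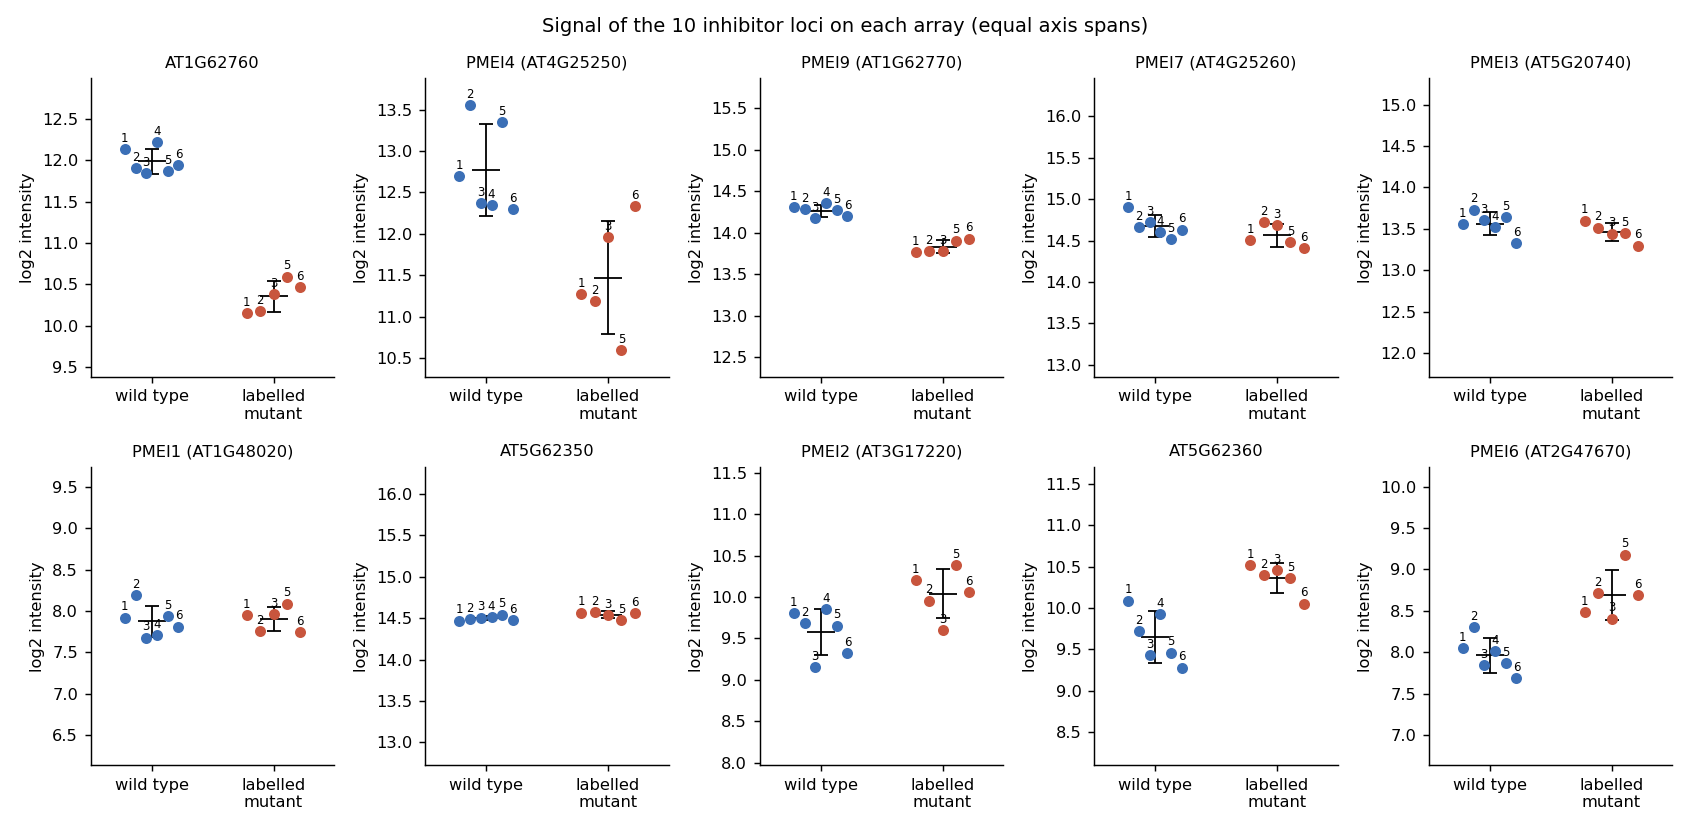
Log2 intensity of each inhibitor locus on the 6 wild-type arrays (blue) and the 5 arrays labelled mutant (red), numbered by replicate, with the group mean and SD in black and axes of equal span. AT1G62760, PMEI9 and PMEI6 have separate groups, PMEI4 spreads widely within each group, and AT5G62350 is nearly flat.

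AT1G62760 showed the largest fall of the 10. Its log2 intensity was 11.85, 11.92 and 12.22 (lowest, median and highest) in wild type. On the arrays labelled mutant it was 10.16, 10.18, 10.38, 10.60 and 10.47. Every array labelled mutant thus lay more than 1 log2 unit below every wild-type array. The mean went from 11.99 ± 0.15 (SD, n = 6) to 10.36 ± 0.19 (SD, n = 5), and the log2 fold change was -1.63 ± 0.096 (SE, limma adjusted p = 2.12e-07), or 3.09-fold lower.

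PMEI9 (AT1G62770), known from the growing root, fell by less but as evenly. Wild-type arrays held log2 intensities of 14.17, 14.28 and 14.36 (lowest, median and highest), and those labelled mutant 13.76, 13.78, 13.77, 13.91 and 13.93. The groups did not overlap, and the small spread within them (SD 0.071 and 0.079) let a log2 fold change of -0.44 ± 0.050 (SE), or 1.35-fold, pass at an adjusted p of 6.08e-05. Neither call ended when any 1 array was left out.

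PMEI4 (AT4G25250), known from elongating dark-grown hypocotyls, fell on average but varied most. Its log2 intensity on wild-type arrays 1 to 6 was 12.70, 13.55, 12.37, 12.35, 13.35 and 12.30. On the arrays labelled mutant 1, 2, 3, 5 and 6 it was 11.27, 11.19, 11.96, 10.60 and 12.34. Wild-type arrays 2 and 5 were the highest, and 4 of the 5 arrays labelled mutant lay below every wild-type array, while array 6 lay just above the lowest of them. The log2 fold change was -1.30 ± 0.33 (SE, adjusted p = 0.0116), with a 95% interval from -2.02 to -0.58. With arrays of a group whose numbers lie 3 apart averaged, the fold change was -1.33 and the call ended (adjusted p = 0.0681). Without wild-type arrays 2 and 5 it was -0.96 (adjusted p = 0.0442). The within-group SD of PMEI4, 0.614, ranked at the 99.1 percentile of all features, whose median was 0.123.

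In both groups the arrays with the highest PMEI4 signal were also those with the highest root hair signal. The mean of 13 root hair markers, relative to wild type, was highest on wild-type arrays 2 (0.44) and 5 (0.42) and lay between -0.37 and -0.06 on the other 4. On the arrays labelled mutant it was lowest on array 5 (-2.98), highest on array 6 (-1.25) and between -2.30 and -2.18 on arrays 1, 2 and 3. PMEI4 was likewise lowest on array 5, at -2.17 relative to its wild-type mean, and highest on array 6, at -0.43. The order was not the same throughout. Among wild-type arrays 1, 3, 4 and 6, array 1 held the highest PMEI4 (-0.07) and the lowest root hair mean (-0.37). Wild-type arrays 3 and 6 had higher root hair means (-0.06 and -0.07) but PMEI4 at -0.40 and -0.47. Labelled mutant array 3 held PMEI4 at -0.81 while its root hair mean was close to those of labelled mutant arrays 1 and 2. All 13 root hair markers fell, against 13.1% of all loci. Their log2 fold changes were -3.32 to -0.68, and none lay in the dimmest 25% of features. The mean of 8 green tissue markers was also highest on wild-type arrays 2 (0.25) and 5 (0.40). It lay between -0.06 and 0.26 on the arrays labelled mutant. The part of root hair or green tissue RNA in the PMEI4 values was not tested.

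**Figure D2:**
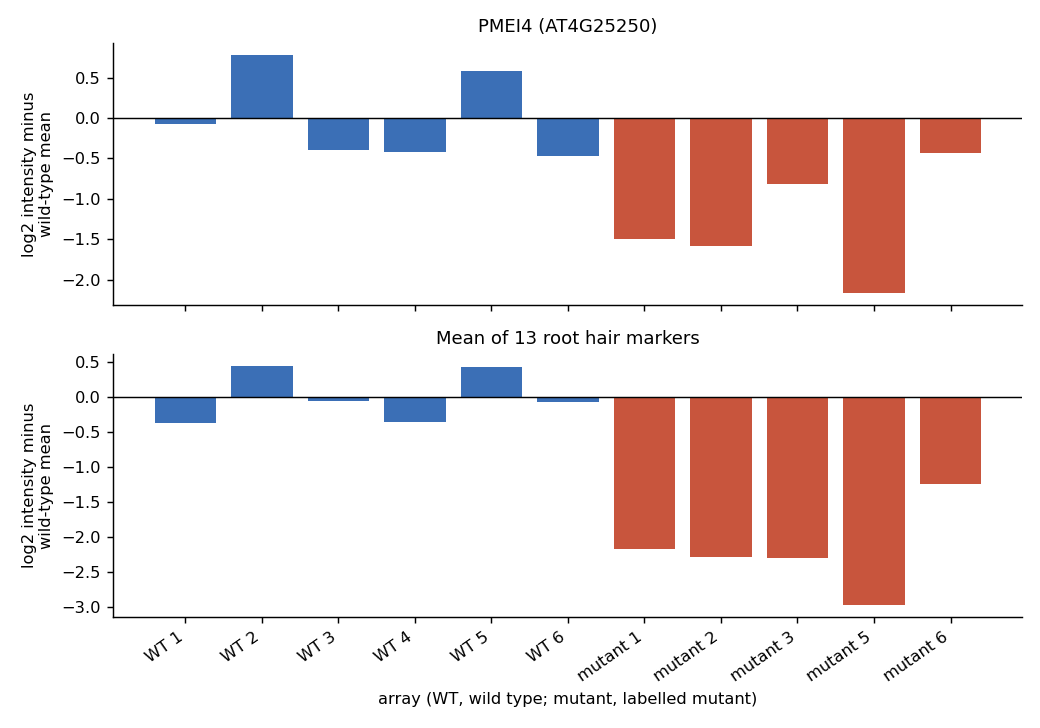
Log2 intensity of PMEI4 (top) and mean log2 intensity of 13 root hair markers (bottom) on each array, both minus their wild-type mean; blue bars are wild type and red bars are labelled mutant. Wild-type arrays 2 and 5 are the highest in both panels, and among the arrays labelled mutant array 5 is the lowest and array 6 the highest in both.

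PMEI6 (AT2G47670), which acts in the seed coat where it is needed for mucilage release, had the largest rise. Its log2 intensity was 7.69, 7.95 and 8.31 (lowest, median and highest) in wild type. On the arrays labelled mutant it was 8.48, 8.71, 8.41, 9.18 and 8.69. The groups did not overlap, but wild-type array 2 and labelled mutant array 3 lay close together. The log2 fold change was 0.73 ± 0.14 (SE, n = 6 and 5, adjusted p = 0.00237), or 1.66-fold. This feature lay in the dimmest 25% of all features, and whether fold changes are compressed there was not tested. Beside PMEI6, 13 of 16 seed storage and late embryogenesis genes rose, against 19.4% of all loci. The mean of the 16, relative to wild type, was 1.18 to 1.63 on the arrays labelled mutant and -0.38 to 0.22 in wild type. Within a group, PMEI6 and this mean did not order the arrays alike. Labelled mutant array 3 held the highest mean (1.63) and the lowest PMEI6 of its group (8.41). Wild-type array 2 held the highest PMEI6 of its group (8.31) with a mean of -0.28. Among 9 seed coat and endosperm markers 2 rose and 3 fell, against 19.4% and 13.1% of all loci. The endosperm mannanase gene MAN7 changed by 0.25 and DELTA-VPE, a protease gene of the seed coat, by -1.21. The part of seed RNA in the PMEI6 rise was not tested.

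AT5G62360 rose by a similar amount. Wild-type log2 intensities were 9.28, 9.59 and 10.09 (lowest, median and highest), against 10.52, 10.40, 10.46, 10.36 and 10.05 on the arrays labelled mutant. Only labelled mutant array 6 fell within the wild-type range, and the log2 fold change was 0.71 ± 0.14 (SE, adjusted p = 0.00349), or 1.63-fold.

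PMEI1 (AT1G48020) and PMEI2 (AT3G17220), the inhibitors known from pollen, differed in outcome. PMEI2 held log2 intensities of 9.15, 9.67 and 9.85 (lowest, median and highest) in wild type, and 10.20, 9.96, 9.60, 10.38 and 10.06 on the arrays labelled mutant. On 4 of the 5 it exceeded every wild-type array, and its log2 fold change was 0.46 ± 0.16 (SE, adjusted p = 0.0412). That call was lost in 8 of the 11 fits that left out 1 array, with adjusted p from 0.0147 to 0.0953, so it rests on the full set of arrays. With arrays 3 numbers apart averaged the value was 0.49 and the call ended (adjusted p = 0.0995), and without wild-type arrays 2 and 5 together it was 0.51 (adjusted p = 0.0713). PMEI1 ranged from 7.68 to 8.19 in wild type and from 7.75 to 8.09 on the arrays labelled mutant, both in the dimmest 25% of features. Its log2 fold change was 0.03, with a 95% interval from -0.19 to 0.24 (adjusted p = 0.862). Of 9 pollen markers, 8 of them in the dimmest 25% of features, 3 rose and 0 fell, or 33.3%, against 32.5% of all loci. All 3 were pollen pectin methylesterases in the dimmest 25%, also counted among the enzymes below, with VGDH1 at 0.40 (limma adjusted p = 0.0252). The mean of the 9, relative to wild type, was -0.03 to 0.30 on the arrays labelled mutant and -0.09 to 0.09 in wild type. The part of pollen transcripts in the PMEI2 values was not tested.

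The remaining 3 loci stayed within narrow intervals around no change. PMEI7 (AT4G25260), which inhibits PME3 in vitro, had means of 14.68 ± 0.13 (SD, n = 6) and 14.56 ± 0.14 (SD, n = 5). Its log2 fold change of -0.11 had a 95% interval from -0.28 to 0.06 (adjusted p = 0.288), and the groups overlapped. PMEI3 (AT5G20740), known from the shoot apical meristem, had a log2 fold change of -0.10 with an interval from -0.26 to 0.06 (adjusted p = 0.305). AT5G62350 had the smallest spread of the 10, with a within-group SD of 0.0321, among the lowest 0.512% of features. Its log2 fold change of 0.04 had an interval from -0.03 to 0.12 (adjusted p = 0.371). For these 3 loci the intervals contain no change as large as 1.5-fold.

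**Figure D3:**
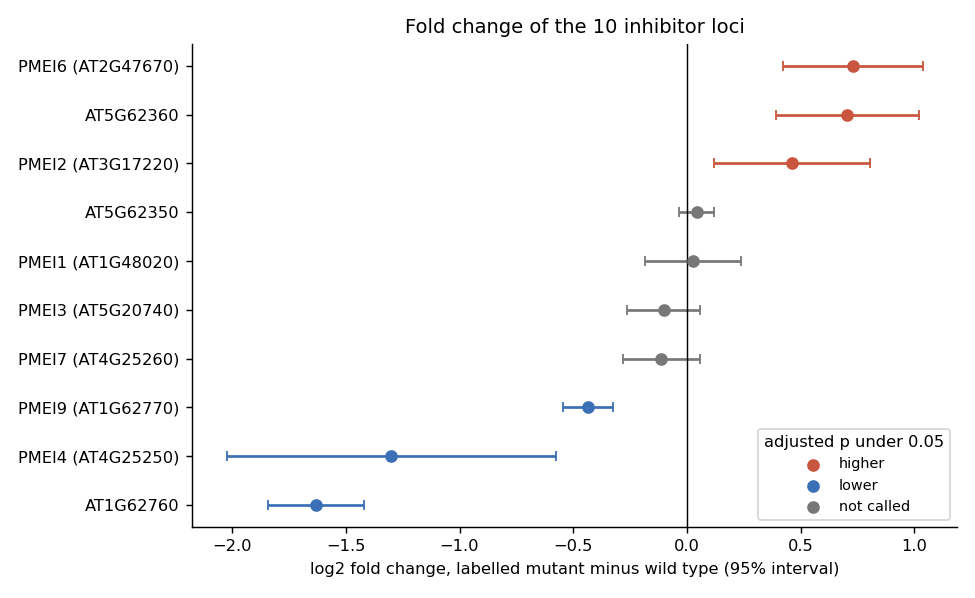
Log2 fold change of the 10 inhibitor loci, labelled mutant minus wild type, with 95% intervals from the limma fit; red and blue points passed an adjusted p of 0.05. The values run from -1.63 for AT1G62760 to 0.73 for PMEI6, and the interval of PMEI4 is the widest.

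The 10 loci include 3 pairs with adjacent or nearly adjacent locus numbers, and in each pair the copies differed in their response. The difference in log2 intensity between the copies was taken on each array and compared between groups by an exact two-sided permutation test over all 462 splits, adjusted over the 3 pairs. In the RefSeq annotation of TAIR10.1, 1 pseudogene, AT1G62766, lies between AT1G62760 and AT1G62770, and the copies of the other pairs are direct neighbours. AT1G62760 fell by 1.19 more on the log2 scale than PMEI9, with array differences of -3.61 to -3.31 in the labelled mutant and -2.40 to -2.14 in wild type (adjusted p = 0.00648 by exact permutation). The groups did not overlap, so both copies fell but not equally.

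PMEI4 and PMEI7 differed by as much, but less evenly. Their array differences were -3.89 to -2.07 in the labelled mutant and -2.36 to -1.11 in wild type, and PMEI4 changed by -1.19 relative to PMEI7 (adjusted p = 0.0216 by exact permutation). Labelled mutant array 6 overlapped with wild type. Without labelled mutant array 5 the difference was -0.99 with an adjusted p of 0.0524, and without wild-type arrays 2 and 5 it was -0.81 with an adjusted p of 0.0873, both by exact permutation. AT5G62350 changed by -0.66 relative to AT5G62360, with array differences of 4.05 to 4.50 in the labelled mutant and 4.38 to 5.20 in wild type (adjusted p = 0.013 by exact permutation). Only AT5G62360 of that pair passed the limma test. The files hold no probe sequences, so hybridisation shared between copies was not tested.

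**Figure D4:**
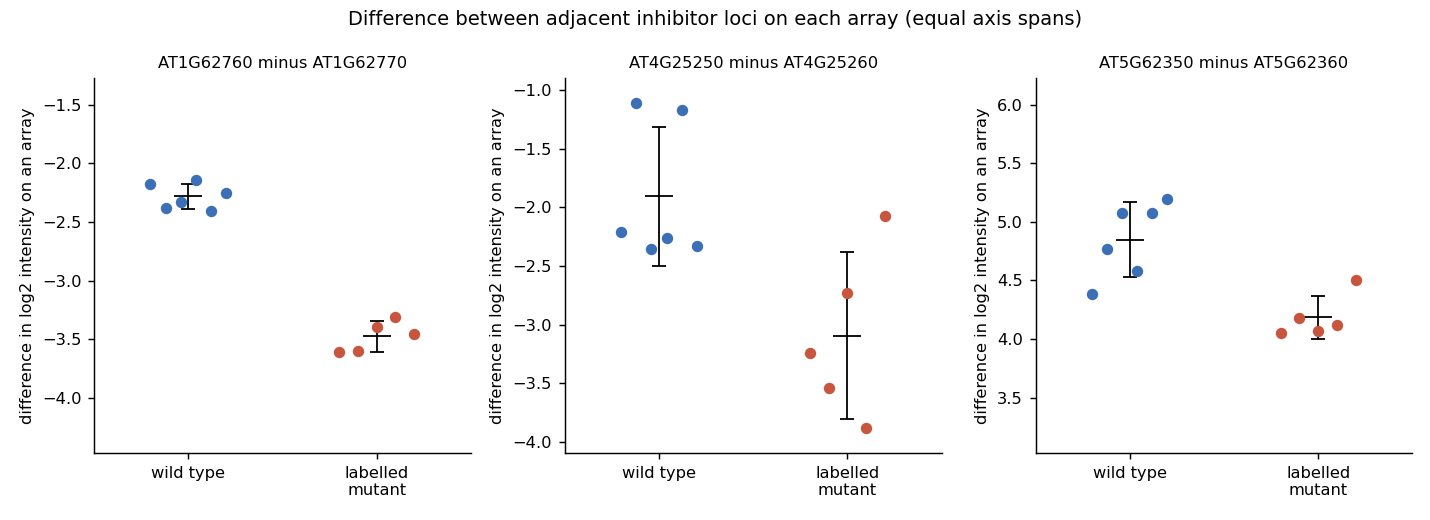
Difference in log2 intensity between the members of 3 neighbouring pairs on each array, with the group mean and SD in black and axes of equal span; blue is wild type and red labelled mutant. The first pair separates fully, while labelled mutant array 6 lies within the wild-type range in the other pairs.

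The inhibitors were set beside the other genes of the pathway. Of 52 other loci of the inhibitor domain family 10 rose and 5 fell, or 28.8%, against 32.5% of all loci (19.4% higher and 13.1% lower). Their median log2 fold change was 0.11, and that of all loci 0.05. Of the 52, 28 lay in the dimmest 25% of features and held 6 of the calls. Of all 32627 loci, 8400 lay in that range and 2931 of these were called. With the dimmest 25% left out, 5 of 24 rose and 4 fell by the same call. Of the 27838 features of the whole array left at that setting, 4679 rose and 4114 fell. Over all 52 loci, the 10 inhibitors left out, calls were no more frequent than on the whole array. That does not hold for the 24 brighter loci alone. The values that follow describe single loci. A run of neighbouring loci on chromosome 5 held the strongest falls. AT5G46950 went from 12.78 ± 0.22 to 11.22 ± 0.14 (log2 mean ± SD, n = 6 and 5), or -1.56 on the log2 scale (adjusted p = 6.39e-07). AT5G46940 (-1.50) and AT5G46960 (-1.34) fell beside it, and in all 3 the groups did not overlap. The 4 other loci of the run from AT5G46930 to AT5G46990 all lay in the dimmest 25% of features, and 2 of them rose, AT5G46970 by 0.21 and AT5G46990 by 0.39, examples chosen after their values were seen. Elsewhere AT2G15345 rose from 9.01 ± 0.13 to 10.45 ± 0.18 (log2 fold change 1.44, adjusted p = 2.40e-07), AT1G70720 by 1.55 (adjusted p = 3.14e-04) and AT5G50060 by 0.68 (adjusted p = 3.14e-04).

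Among the target enzymes calls were about as frequent as on the whole array. Leaving PME3 aside, 17 of 65 pectin methylesterases rose and 7 fell, or 36.9%, against 32.5% of all loci (19.4% higher and 13.1% lower), with a median log2 fold change of 0.09. With a fold of at least 1.5 in addition, 0 of the 65 were higher and 6 lower, against 3.58% and 4.99% of all loci; 22 were higher at an unadjusted p under 0.05 in limma. The root hair gene RHS12 went from 11.65 ± 0.40 to 8.29 ± 0.49 (log2 mean ± SD, n = 6 and 5) and AT5G04960 from 13.22 ± 0.37 to 9.66 ± 0.86. AT2G45220 fell by 0.99 on the log2 scale (adjusted p = 1.51e-04). PMEPCRF (0.33), AT4G03930 (0.26) and AT5G26810 (0.32) had the rises of lowest p. Of the 65, 24 lay in the dimmest 25% of features and 12 of these were called, against 2931 of the 8400 loci in that range. Between 10 and 18 enzymes rose when 1 array was left out, with 10 or 11 without wild-type array 5 or labelled mutant arrays 1, 2 or 3. Without wild-type arrays 2 and 5, 7 enzymes rose, while higher calls over all features went from 6989 to 5078.

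Among 7 genes that make or methylate homogalacturonan 1 passed, or 14.3%, against 32.5% of all loci. It was the methyltransferase gene TSD2, with a log2 fold change of -0.16 (limma adjusted p = 0.0175). Its log2 intensity went from 14.54 ± 0.058 to 14.38 ± 0.058 (mean ± SD, n = 6 and 5). With arrays 3 numbers apart averaged, or without wild-type arrays 2 and 5, limma called 0 of the 7 lower, and 1 at an unadjusted p under 0.05.

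**Figure D5:**
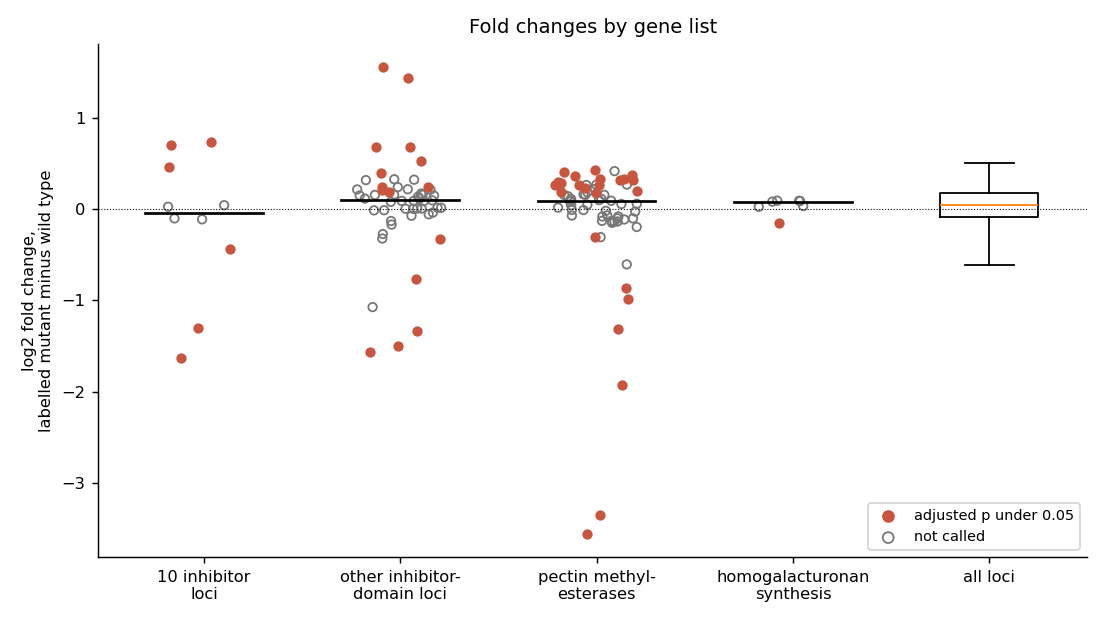
Log2 fold changes, labelled mutant minus wild type, of the 10 inhibitor loci, 52 other loci of the domain family, 65 pectin methylesterases and 7 homogalacturonan synthesis genes; filled points passed an adjusted p of 0.05 and bars are list medians. The box shows the quartiles of all loci with whiskers at the 5th and 95th percentiles, from -0.62 to 0.51. Each of the first 3 lists holds falls beyond -1, and of the lists only the 52 other domain loci hold rises of that size.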

How the data were processed

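RNA was labelled with Cy3 and hybridised to arrays of 1 NimbleGen chip. Each deposited value is a linear intensity of 1 feature on 1 array. The authors used RMA, per the submitters' processing notes, and its version was not given in the sources used here. Array medians of 3776 to 3909 show a common scale, which removes any change in total RNA. Per-sample columns of other samples numbered 0. The number of arrays limits the precision.

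Groups and replicate numbers came from the titles, which number the mutant arrays 1, 2, 3, 5 and 6. The descriptions conflict with this, calling array 5 the fourth and array 6 the sixth of 5 replicates, so the fits that use these numbers (the replicate block and the averaging of numbers 3 apart) rest on the titles. Log2 intensities of all 37118 features were fitted without covariates, using lmFit and eBayes of limma 3.58.1 (R 4.3.3), and p-values were adjusted by Benjamini-Hochberg over the whole array. In counts each locus was represented by its feature of highest mean, giving 32627 loci. The fit and the permutation test were tested on simulated data. The members, lists and tests were chosen with earlier results of these data known. Beside the 10 loci and PME3, genes named are per list up to 3 risen and 3 fallen genes of lowest p (1 each for markers), loci within 3 of a member that changed at least 2-fold, and the 3 features most correlated with the largest rise and fall. Symbols came from the RefSeq table of TAIR10.1; PMEI3, PMEI4, PMEI6, PMEI7 and PMEI9 are names given with the list of loci. Pathway lists were compiled from general knowledge, and membership was not checked against sequence.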

Additional observations from a re-analysis of the deposited data

How the results depend on the processing

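The number of inhibitors called lower was 3 in each fit that left out 1 array, and 2 or 3 in the other alternatives; the number called higher was 2 or 3, except for 0 of the 5 loci left once the dimmest 50% of features were removed (limma, 0 at an unadjusted p under 0.05), since the 3 that rose were among those removed. AT1G62760, PMEI6, AT5G62360 and PME3 kept their calls in every alternative that tested them. PMEI4 also lost its call with the replicate number as a block (-1.39, adjusted p = 0.0604). The sign of PMEI1 turned with a second quantile normalization (-0.0172) and the replicate block (-0.00715), and it ran from -0.0216 to 0.0891 without 1 array; the cause was not tested.

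With the dimmest 25% of features left out, 5 of 24 other domain genes and 7 of 41 pectin methylesterases rose, against 4679 of 27838 features. With the dimmest 50% left out, 2 of 11 domain genes rose and 2 fell, and 3 of 22 enzymes rose and 3 fell; fewer genes were tested. With a fold of at least 1.5, 4 domain genes and 0 enzymes rose (22 at an unadjusted p under 0.05) and 0 synthesis genes fell (1 unadjusted). At an adjusted p of 0.01, 6 domain genes rose, 3 enzymes rose and 4 fell, and 0 synthesis genes fell. With arrays 3 numbers apart averaged, 9 enzymes rose and 4 fell, and 0 synthesis genes fell. Under the replicate block 0 synthesis genes fell. Without wild-type arrays 2 and 5, an alternative chosen after seeing the data, 7 enzymes rose, 0 synthesis genes fell, and the difference between PMEI4 and PMEI7 was -0.81. Over all features 5078 then rose and 4483 fell. Without 1 array in turn that difference ran from -1.44 to -0.99, the enzymes that rose from 10 to 18 and the synthesis genes that rose from 0 to 1 (1 without wild-type array 3).

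Same-numbered arrays of the groups did not consistently deviate together (correlations 0.289, -0.061, 0.099, -0.027 and 0.051). Number 1 gave the highest value, and 5 such values cannot tell whether same-numbered arrays shared a batch. The descriptions contradict the number of labelled mutant array 5. For the 3 pairs, differences under the replicate block were -1.17, -1.26 and -0.72, and with numbers 3 apart averaged -1.22, -1.21 and -0.69. Their exact tests cannot go below 0.0625 with 5 pairs or 0.1 with 3 arrays a group before adjustment, so no call could be kept. For PMEI4 and PMEI7 the adjusted p under the block was 0.125, above the 0.0938 of the other pairs (exact sign-flip test). Their difference was -2.07 on labelled mutant array 6 and -2.33 on wild-type array 6, against the direction of the group means. That pair was thus less stable under the block, and the other lost calls say nothing about stability. The share of higher calls among all features was 58.1%, and 54.5% to 62.8% under other scalings. No detection calls were used, so dim features such as PMEI1 and PMEI6 are limited by signal over background.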

Other observations

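PMEI3, which did not pass the test, is followed in locus number by 3 loci that rose strongly from dim signal, all annotated as pseudogenes in the RefSeq table of TAIR10.1. AT5G20750 went from 7.02 ± 0.081 to 9.15 ± 0.23 (log2 mean ± SD, n = 6 and 5), a log2 fold change of 2.13 with a limma adjusted p of 1.90e-08. AT5G20760 rose by 1.70 and AT5G20770 by 1.97, and no array labelled mutant overlapped with wild type at any of the 3. Separated from PMEI1 by 1 locus that did not pass the test, AT1G48010, the transcription factor gene MYB112 fell by 1.01 on the log2 scale (adjusted p = 0.0022). Of 43 loci within 3 on either side of the inhibitors, members left out, 16 passed (10 higher and 6 lower), or 37.2%, against 32.5% of all loci. These 4 were the only neighbours among the 43 that changed at least 2-fold and passed the test.

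Over the 11 arrays, the features whose log2 intensity correlated most with AT1G62760 were those of AT1G52820 (Pearson r 0.996), the transcribed pseudogene RLP49 (0.995) and AT1G02020 (0.994), with log2 fold changes of -2.03, -2.19 and -2.12. For PMEI6 they were AT4G11911 (0.966), AT3G62499 (0.965) and AT1G32710 (0.963), which rose by 0.52, 0.57 and 0.54. For PMEI4, chosen after its values were seen, they were AT4G25070 (0.986), AT2G39530 (0.985), which encodes a CASP-like protein, and WIH3 (0.983), which changed by -0.62, -2.01 and -1.27. These correlations describe the highest of all features over arrays that share the group difference.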
